A study of Mus musculus with 18 samples.

Results

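The 5 mature miRNAs mmu-miR-199a-5p, mmu-miR-199a-3p, mmu-miR-199b-5p, mmu-miR-214-3p and mmu-miR-214-5p of the mouse were described in adrenal glands and in tumors of a transgenic mouse model of neuroblastoma. They were taken by name from the 1966 miRNAs of the deposited table, as a family known from fibroblasts and mesenchyme. All 5 passed the filter on low values, with at least 3.95 CPM in each of the 18 libraries, so that no member passed through 1 group alone. CPM stands for counts per 1000000 reads of the library, after scaling with its TMM factor (trimmed mean of M values). Small RNA was sequenced from 3 adrenal glands of wildtype mice labelled CRE - (AG), from 7 R26 IGF2BP1 tumors (TI) and from 8 tumors labelled IMP1/MYCN, CRE + (TIM), where IMP1 is another name of IGF2BP1. Of the TI tumors, 6 were labelled IGF2BP1 +/+, CRE + and 1 was labelled IGF2BP1 +/-, CRE +, and 1 of the 6 was taken as a tumor of the adrenal gland. Of the TIM tumors, 2 came from the adrenal gland and 1 from the spine, and 5 were labelled as tumor only. In the tumor mice, a stop cassette at the Rosa26 locus in front of the transgenes was removed by an iCRE under the Dbh promoter, which is active in noradrenergic cells of the adrenal medulla and of peripheral nerves. The IGF2BP1 transgene carried iRFP behind an IRES and lacked the 3' end of the natural transcript, and the MYCN transgene was present in TIM alone. Mice had been backcrossed to C57Bl6/N, and their ages are not in the labels used here. The paper reports that mice with both transgenes had a shorter median survival than homozygous IGF2BP1 mice.

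MicroRNAs guide Argonaute proteins to mRNAs that pair with their seed, bases 2 to 8 of the mature strand, and lower the output of these mRNAs. The hairpins Mir199a-2 and Mir214 are known as passengers of the long non-coding RNA Dnm3os, which is transcribed against the gene of dynamin 3 and is active in mesenchyme of the embryo and in activated fibroblasts. Each hairpin gives a strand from its 5' arm and a strand from its 3' arm, of which both can be loaded, and the bulk of an adrenal gland consists of steroid-producing cortex and catecholamine-producing medulla with vessels and a thin fibrous capsule.

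The sequences are shown because they decide which members can be told apart and which are made from 1 transcript. RefSeq (GRCm38.p6, the build of mm10) held a mature entry for 4 of the 5 members, and mmu-miR-199b-5p is named only. In the following lines the seed is in capitals, written 5' to 3'.
mmu-miR-199a-5p: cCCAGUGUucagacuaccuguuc
mmu-miR-199a-3p: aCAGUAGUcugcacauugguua
mmu-miR-214-5p: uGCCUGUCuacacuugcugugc
mmu-miR-214-3p: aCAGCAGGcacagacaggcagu
The 4 strands carry 4 different seeds. Among the mature entries of RefSeq, the seed CAGUAGU of mmu-miR-199a-3p is shared with mmu-miR-199b-3p, and the seed CAGCAGG of mmu-miR-214-3p with miR-761. Without an entry for mmu-miR-199b-5p, its seed could not be compared in this way. The Mir199b hairpin below holds the letters CCAGUGU, the seed of mmu-miR-199a-5p, on the 5' side of its marked strand. How far reads of mmu-miR-199a-5p and mmu-miR-199b-5p were kept apart was not tested. The mature strand of mmu-miR-199a-3p has 3 entries, from the hairpins Mir199a-1, Mir199a-2 and Mir199b, and all 3 are the same 22 bases. The row of mmu-miR-199b-3p in the deposited table was therefore set beside that of mmu-miR-199a-3p.

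In the hairpins below, the mature strands held by RefSeq are in capitals. Mir199a-2 lies at chr1:162217814-162217923 and Mir214 at chr1:162223368-162223477, both on the plus strand of GRCm38.p6 with 5444 bases between them. Both are inside the lncRNA gene Dnm3os (chr1:162217623-162225550), on its strand and in an exon of at least 1 of its transcripts, and on the strand opposite to Dnm3 within an intron of it. The third hairpin, Mir199b, lies at chr2:32318460-32318569 on the plus strand, opposite to Dnm1 within an intron.
Mir199a-2: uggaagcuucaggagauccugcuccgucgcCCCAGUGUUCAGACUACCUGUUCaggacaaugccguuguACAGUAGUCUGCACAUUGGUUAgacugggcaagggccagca
Mir214: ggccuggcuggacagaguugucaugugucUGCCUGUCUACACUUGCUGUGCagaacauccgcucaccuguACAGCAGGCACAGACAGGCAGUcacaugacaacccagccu
Mir199b: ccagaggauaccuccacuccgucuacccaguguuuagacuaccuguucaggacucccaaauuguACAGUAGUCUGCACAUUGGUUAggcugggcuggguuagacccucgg
The hairpin Mir199a-1 lies at chr9:21496495-21496564 on the minus strand, opposite to Dnm2 within an intron, and holds the same 2 mature strands as Mir199a-2. Strand and intron were read from the GENCODE annotation of GRCm39, in which the hairpins lie in the same genes.

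The promoter of Dnm3os (chr1:162217373-162217672, plus strand, GRCm38.p6, RefSeq) is shown because mmu-miR-199a-5p and the mmu-miR-214 strands moved together across tumors, as given below. Capitals mark its only CArG box, the element bound by serum response factor, which starts 33 bases before the annotated start of the gene.
Dnm3os promoter: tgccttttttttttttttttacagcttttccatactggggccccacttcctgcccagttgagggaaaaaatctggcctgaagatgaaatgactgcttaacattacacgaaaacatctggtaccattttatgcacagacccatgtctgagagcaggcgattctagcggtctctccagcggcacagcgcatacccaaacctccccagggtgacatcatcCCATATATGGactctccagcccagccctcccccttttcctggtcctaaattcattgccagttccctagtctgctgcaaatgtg
On both strands, a CArG box was found in 1.63% of 32851 promoters of this length. The general E-box CANNTG, the element of basic helix-loop-helix factors, was found at 3 places that do not overlap the CArG box, and 72.3% of promoters held at least 1. The E-box form CACGTG was found at 0 places and in 7.15% of promoters. These matches describe the letters of this window.

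The libraries held between 11641696 and 23435621 reads on miRNAs. The share of miR-148a-3p, which is no member, was 4.19% to 6.94% in the adrenal glands, 2.29% to 61.9% in TI tumors and 6.53% to 44.2% in TIM tumors, and TMM factors of 0.700 to 1.85 were applied, so that CPM of a member depends on the scaling. The lowest number of reads of any member in any library was 74, and a floor of 3 reads stood at no more than 0.272 CPM, for counting error only. Column names of the table give the group but not the mouse, and library numbers below only name columns. A tumor's site and allele could therefore not be matched to its values. Nothing states that the libraries of a group came from separate litters or preparations, and p-values measure the spread between these libraries.

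mmu-miR-199a-5p, the 5' strand of the 2 mmu-miR-199a hairpins, was lower in both tumor types than in adrenal glands. In AG it measured 1475, 702 and 547 CPM in libraries 1 to 3. The 7 TI libraries measured 51.4 to 664 CPM with a median of 183, while 84.3 to 440 CPM with a median of 212 were found in the 8 TIM libraries. AG library 1 stood above the other AG libraries, and 6 of 7 TI and 8 of 8 TIM libraries lay below each AG library, so that TIM did not overlap with AG and TI did through library 2 alone. The mean of AG was 3.52 times that of TI and 4.09 times that of TIM. The log2 fold change of CPM + 1 against AG was -2.14 for TI (standard error 0.65, limma adjusted p = 0.0099) and -2.07 for TIM (standard error 0.64, limma adjusted p = 0.012). Without AG library 1 the difference did not pass the threshold in either tumor type, with -1.73 in TI (limma adjusted p = 0.074) and -1.65 in TIM (limma adjusted p = 0.094).

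mmu-miR-199a-3p, the 3' strand of the same hairpins, was the most abundant member in every library. In AG it measured 1514, 1200.5 and 1343 CPM, and it ranked between 53 and 60 among all miRNAs of these libraries. TI tumors held 221 to 790.5 CPM with a median of 312, and TIM tumors 122 to 728 CPM with a median of 346. All 15 tumor libraries were below all AG libraries, and the AG libraries were close together, with a CV of 11.6% against 55.2% in TI and 56.1% in TIM. Against AG, the log2 fold change was -1.89 for TI (standard error 0.51, limma adjusted p = 0.0046) and -1.995 for TIM (standard error 0.50, limma adjusted p = 0.0029). Both calls held when any 1 library was left out.

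The reads of this sequence were divided between 2 rows of the table in a nearly fixed proportion. Between 1.83 and 2.01 reads were on the row of mmu-miR-199a-3p for each read on the row of mmu-miR-199b-3p in the 18 libraries, with a median of 1.94. The proportion did not follow the group, since it was 1.96 to 2.003 in the adrenal glands, 1.89 to 2.01 in TI tumors and 1.83 to 2.01 in TIM tumors. The 2 names have 2 and 1 hairpins in RefSeq, and their identical strand cannot be assigned to a hairpin from these values. mmu-miR-199b-3p alone gave log2 fold changes of -1.86 for TI (limma adjusted p = 0.0048) and -1.96 for TIM (limma adjusted p = 0.0031), which therefore do not add a separate measurement. With both rows added together, the strand measured 2285, 1806 and 2013 CPM in AG, 332 to 1184 CPM in TI and 183 to 1091 CPM in TIM.

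**Figure D1:**
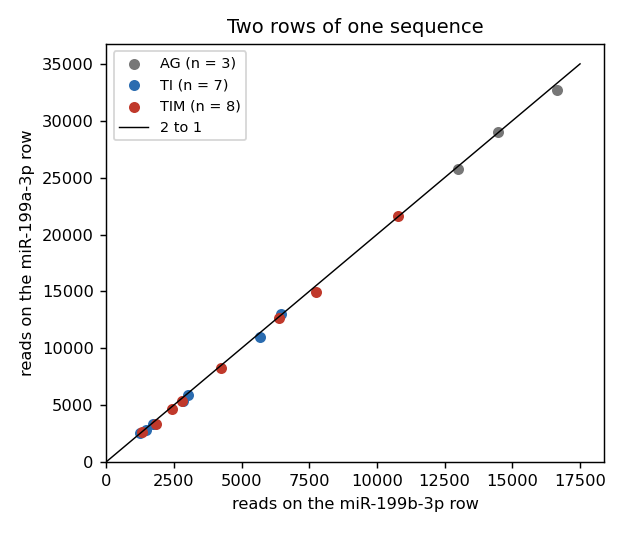
Reads on the row of mmu-miR-199a-3p (vertical axis) against reads on the row of mmu-miR-199b-3p (horizontal axis), 1 point for each of the 18 libraries, colored by group. The line marks 2 reads to 1, and the points lie along it, with ratios between 1.83 and 2.01.

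mmu-miR-214-5p, the 5' strand of the Mir214 hairpin, had the largest fold change of the members in both tumor types by limma. In AG it measured 115, 67.2 and 62.6 CPM. Levels of 7.90 to 43.6 CPM with a median of 18.5 were found in TI tumors, and of 7.34 to 32.2 CPM with a median of 16.6 in TIM tumors. Every tumor library was below every AG library. The log2 fold change against AG was -2.18 for TI (standard error 0.53, limma adjusted p = 0.0023) and -2.20 for TIM (standard error 0.52, limma adjusted p = 0.0020), and both calls held when any 1 library was left out.

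mmu-miR-214-3p, the 3' strand of that hairpin, fell in TI and not past the threshold in TIM. It measured 137, 77.7 and 84.1 CPM in AG. The TI tumors spread over 9.73 to 95.1 CPM with a median of 34.2, and the TIM tumors over 19.6 to 84.5 CPM with a median of 39.5. TI libraries 2 and 4 and TIM library 2 reached into the range of AG, while 5 of 7 TI and 7 of 8 TIM libraries were below it. TI and AG differed by a log2 fold change of -1.50 (standard error 0.57, limma adjusted p = 0.033), and TIM and AG by -1.33 (standard error 0.56, limma adjusted p = 0.055). In TI the call was lost without any 1 of the 3 AG libraries or of TI libraries 1, 3 and 6 (limma adjusted p from 0.054 to 0.14), and in TIM the difference passed without library 2 (-1.49, limma adjusted p = 0.030). edgeR did not call it in TI (-1.21, adjusted p = 0.059) and called it in TIM (-1.27, adjusted p = 0.047).

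mmu-miR-199b-5p, the 5' strand named for the hairpin on chromosome 2, was at 76.5, 66.4 and 56.5 CPM in AG. Values of 3.95 to 55.2 CPM with a median of 28.8 were found in TI, and of 8.51 to 83.3 CPM with a median of 22.6 in TIM. The 7 TI libraries were below all AG libraries. In TIM, 7 of 8 libraries were below AG and library 4, with 83.3 CPM, was above it. For TI against AG the log2 fold change was -1.60 (standard error 0.66, limma adjusted p = 0.046), and for TIM against AG -1.41 (standard error 0.65, limma adjusted p = 0.075). The TI call lay close to the threshold and was lost without any 1 of the 3 AG libraries or of TI libraries 3, 5 and 6 (limma adjusted p from 0.067 to 0.13). It was also lost with edgeR (-1.25, adjusted p = 0.11) and with DESeq2 (-1.29, adjusted p = 0.078) on the recovered reads. Without TIM library 4 the TIM difference was -1.66 (limma adjusted p = 0.031).

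**Figure D2:**
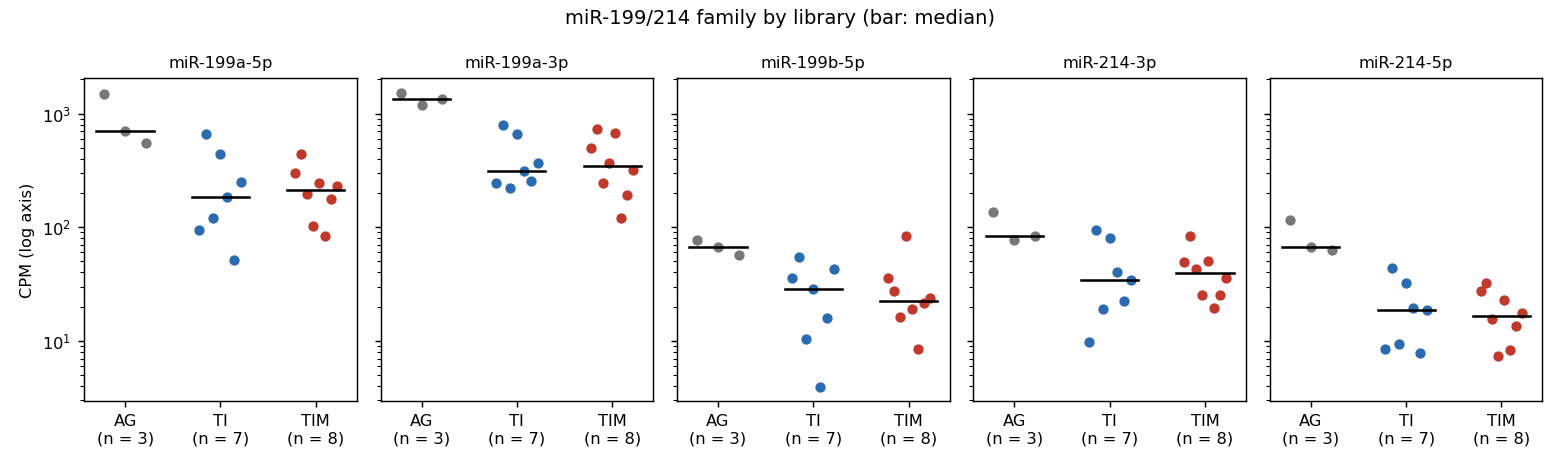
CPM of the 5 members on a log axis in each library of AG (n = 3), TI (n = 7) and TIM (n = 8), 1 panel for each member. Points are libraries and bars are medians. For mmu-miR-199a-3p and mmu-miR-214-5p all tumor libraries lie below all AG libraries, and for mmu-miR-199b-5p 1 TIM library lies at 83.3 CPM above AG.

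Counted over the family, 5 of 5 members were lower in TI than in AG, at a median log2 fold change of -1.89. Among all 726 miRNAs tested 29.3% were lower in TI, and their median log2 fold change was -0.01. In TIM, 3 of 5 members were lower than in AG (mmu-miR-199a-5p, mmu-miR-199a-3p and mmu-miR-214-5p) at a median of -1.995, beside 25.9% of all miRNAs tested and a median of 0.18. All TI libraries lay below all AG libraries for 3 of 5 members, compared with 24.4% of the miRNAs tested, and the same held for 3 of 5 members in TIM, compared with 22%. edgeR on the recovered reads called 3 of 5 members lower in TI (25.3% of all tested) and 4 of 5 in TIM (22.2% of all tested). DESeq2 called 4 of 5 in TI (26.9% of all tested) and 4 of 5 in TIM (25.1% of all tested). The limma count of 5 in TI was 2 without AG library 1 and 3 without any 1 of AG libraries 2 and 3 and TI libraries 3 and 6. TI and TIM were compared with the same 3 AG libraries, so their values against AG are not independent of each other. The 5 members are not independent either, since they include both arms of Mir214, and Mir199a-2 lies in the same lncRNA gene. In bulk tissue, fewer cells that carry a miRNA and less of it per cell cannot be told apart.

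TIM and TI were compared as tumors with and without the MYCN transgene. The groups also differed in other ways. The labels give 2 IGF2BP1 alleles in 6 of 7 TI tumors, while TIM tumors carried both transgenes and no wildtype allele at Rosa26, and the labelled sites differed. The paper also reports a shorter median survival for mice with both transgenes than for homozygous IGF2BP1 mice, so the ages of the animals may differ too. An effect of MYCN cannot be told apart from these. None of the 5 members passed the threshold in limma (0 of 5, where 5.23% of all miRNAs tested passed in either direction), and 0 had an unadjusted p under 0.05 in limma, edgeR or DESeq2. The log2 fold changes of TIM against TI were 0.08 for mmu-miR-199a-5p (95% confidence interval -0.94 to 1.10), -0.11 for mmu-miR-199a-3p (-0.90 to 0.68) and 0.18 for mmu-miR-199b-5p (-0.85 to 1.22). For mmu-miR-214-3p it was 0.17 (-0.73 to 1.07) and for mmu-miR-214-5p -0.02 (-0.86 to 0.81). The limma adjusted p-values ran from 0.87 to 0.98. These intervals leave room for changes of more than 0.8 in either direction on the log2 scale for 3 of the 5 members, so that the spread among tumors limits the comparison.

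**Figure D3:**
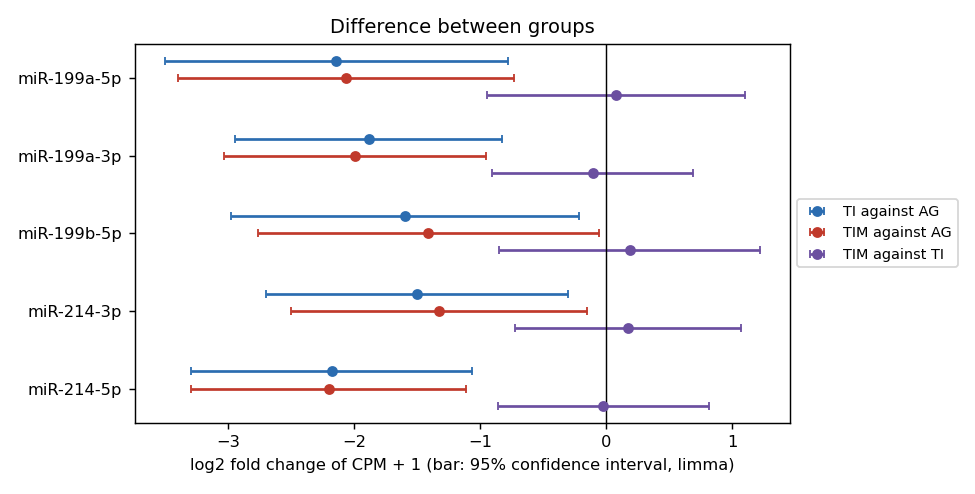
Log2 fold change of CPM + 1 of each member (horizontal axis) for TI against AG, TIM against AG and TIM against TI, with 95% confidence intervals from limma. All intervals against AG lie below 0, and all intervals of TIM against TI include 0.

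The order of levels within a library was largely kept. mmu-miR-199a-3p exceeded mmu-miR-199a-5p in 3 of 3 AG, 7 of 7 TI and 8 of 8 TIM libraries, and mmu-miR-214-3p exceeded mmu-miR-214-5p in all of these as well. mmu-miR-199a-5p exceeded both mmu-miR-214 strands in all 18 libraries. The position of mmu-miR-199b-5p differed. It was below mmu-miR-214-5p in 3 of 3 AG libraries, at 0.663 to 0.988 of its level, and above it in 5 of 7 TI and 6 of 8 TIM libraries.

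Ratios of 2 members within a library do not depend on how the library was scaled, apart from the pseudocount. The ratio of the arms of the Mir214 hairpin, mmu-miR-214-3p over mmu-miR-214-5p, was 1.18, 1.15 and 1.34 in AG. TIM tumors had ratios of 1.75 to 3.17 with a median of 2.18, and TI tumors of 1.14 to 2.61 with a median of 2.03. All 8 TIM libraries were above all AG libraries, as were 6 of 7 TI libraries, while TI library 1 was below all of AG. On the log2 scale the mean was 0.29 ± 0.12 in AG (SD, n = 3), 0.97 ± 0.39 in TI (SD, n = 7) and 1.16 ± 0.30 in TIM (SD, n = 8). TIM exceeded AG by 0.87 (two-sided exact permutation test, p = 0.012, the smallest p these groups allow) and TI exceeded AG by 0.68 (two-sided exact permutation test, p = 0.067). After Benjamini-Hochberg adjustment over the 12 ratio comparisons, the exact permutation p was 0.15 in TIM and 0.27 in TI, so neither passed. TIM and TI differed by 0.19 (two-sided exact permutation test, p = 0.31, adjusted p = 0.63).

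The ratio of mmu-miR-199a-5p, from Mir199a-1 and Mir199a-2 together, to mmu-miR-214-3p was 10.7, 8.94 and 6.43 in AG. Ratios of 3.94 to 6.76 were found for TIM and of 2.25 to 8.90 for TI, and 7 of 8 TIM and 4 of 7 TI libraries were below all AG libraries. The log2 difference from AG was -0.74 for TIM (two-sided exact permutation test, p = 0.024, adjusted p = 0.15) and -0.64 for TI (two-sided exact permutation test, p = 0.10, adjusted p = 0.30). The ratio of the mmu-miR-199a strands showed no such order. It is not an arm ratio of these hairpins alone, since Mir199b also holds the sequence of mmu-miR-199a-3p. mmu-miR-199a-3p over mmu-miR-199a-5p was 1.03 to 2.45 in the adrenal glands, 1.19 to 4.92 in TI tumors and 1.09 to 3.57 in TIM tumors, and the log2 difference from AG was 0.26 for TI (exact permutation test, p = 0.60) and 0.07 for TIM (exact permutation test, p = 0.88). The ratio of mmu-miR-199b-5p to mmu-miR-199a-5p spread most, over 0.0269 to 0.389 for TI and 0.0644 to 0.809 for TIM, against 0.0525 to 0.105 for AG. None of the 12 ratio comparisons passed after adjustment. With 3 AG libraries, 1 ratio alone at the smallest p would have had an adjusted p of 0.15 in TIM and 0.20 in TI, so that the comparisons with AG had little room to pass.

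**Figure D4:**
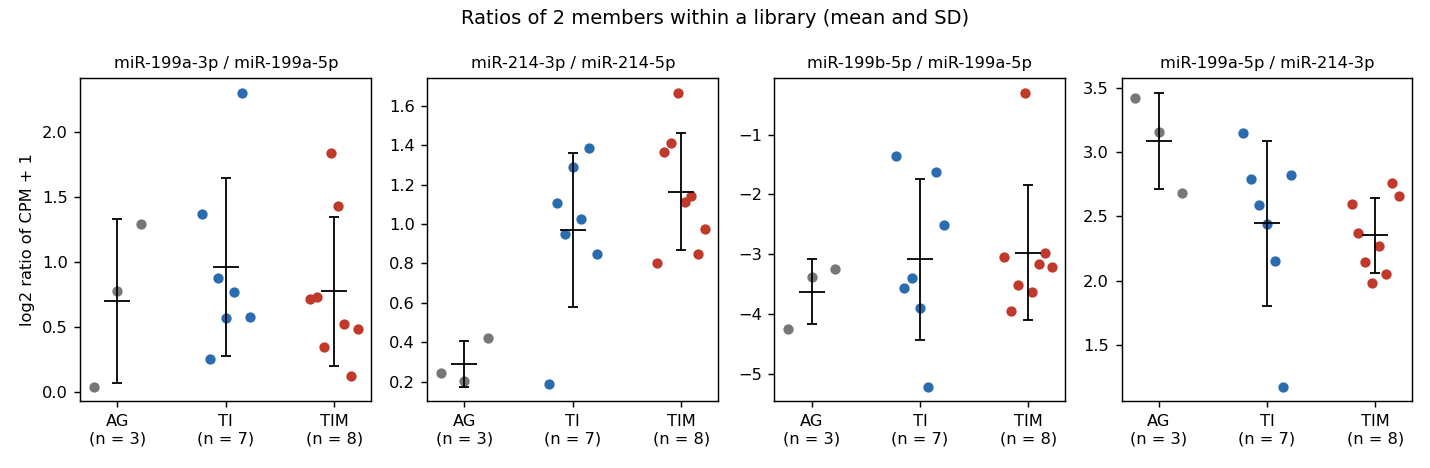
Log2 ratio of CPM + 1 between 2 members in each library, 1 panel for each of 4 ratios, with the mean and SD of AG (n = 3), TI (n = 7) and TIM (n = 8). In the panel of mmu-miR-214-3p over mmu-miR-214-5p all TIM libraries lie above AG and 1 TI library lies at the level of AG.

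Among the tumors of a type, mmu-miR-199a-5p varied with both mmu-miR-214 strands. It is the same strand from Mir199a-2 in Dnm3os and from Mir199a-1 on chromosome 9, and its reads cannot be assigned to 1 of them. mmu-miR-199a-5p and mmu-miR-214-5p had a Pearson's r of 0.97 within TI (n = 7, exact permutation test, adjusted p = 0.0060) and of 0.97 within TIM (n = 8, exact permutation test, adjusted p = 0.0050) on log2(CPM + 1). Spearman's rho was 0.96 within TI (exact permutation test, adjusted p = 0.019) and 0.98 within TIM (exact permutation test, adjusted p = 0.0079), and r was 0.97 and 0.99 without the 2 libraries farthest from the median of mmu-miR-199a-5p. Adjustment was made over the 20 relations computed, 10 pairs of members in each tumor type. Of these, 6 of 10 passed within TI and 4 of 10 within TIM by Pearson's r, and 5 of 10 in each by Spearman's rho. The strands of the Mir214 hairpin were related with r = 0.95 in TI (exact permutation test, adjusted p = 0.014) and r = 0.91 in TIM (exact permutation test, adjusted p = 0.0064), with r = 0.96 and 0.85 without the 2 farthest libraries. Among the pairs that passed, r without the 2 farthest libraries was lowest for mmu-miR-199a-3p with mmu-miR-214-3p in TIM, at 0.65 after 0.85 with all 8. All values of a library share its scaling.

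None of the relations of mmu-miR-199b-5p passed. Its r with the other 4 members was 0.20 to 0.53 among TI tumors and -0.02 to 0.51 among TIM tumors (0 of 8). Without the 2 libraries farthest from the median of 1 member of the pair, r was 0.16 to 0.63 in TI and -0.61 to 0.66 in TIM. The lowest in TIM was with mmu-miR-199a-5p and the highest with mmu-miR-214-5p, so these values depend on the libraries used. By Pearson's r, a pair of relations without it did not pass in TIM either, both of mmu-miR-199a-3p. With mmu-miR-199a-5p, r was 0.77, and 0.38 without the 2 farthest libraries (exact permutation test, adjusted p = 0.051). With mmu-miR-214-5p, r was 0.74, and 0.47 without them (exact permutation test, adjusted p = 0.070). Spearman's rho with mmu-miR-199a-5p passed (0.83, exact permutation test, adjusted p = 0.038). That with mmu-miR-214-5p did not (0.74, exact permutation test, adjusted p = 0.076). With the group means removed, the r of mmu-miR-199b-5p with the mean of the other members over the 18 libraries was 0.32. The corresponding r of the other 4 members was between 0.83 and 0.88. For each of these 4 the mean included the other arm of its hairpin. The row of mmu-miR-199b-3p was not in the mean for mmu-miR-199b-5p, but the same sequence was, through the row of mmu-miR-199a-3p. No test was made of the difference between these values.

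**Figure D5:**
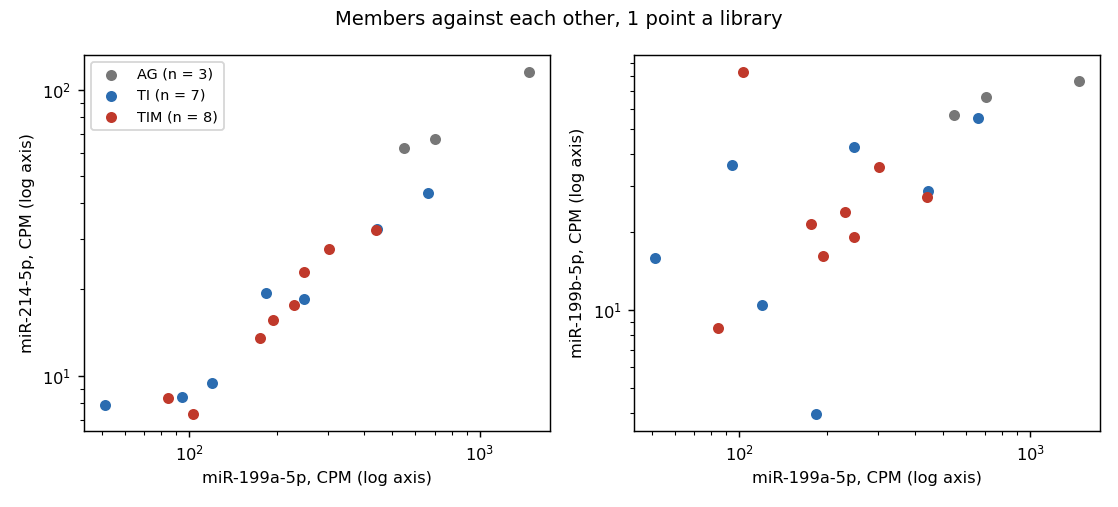
CPM of mmu-miR-214-5p (left) and of mmu-miR-199b-5p (right) against CPM of mmu-miR-199a-5p, log axes, 1 point for each of the 18 libraries. The points of mmu-miR-214-5p follow mmu-miR-199a-5p within both tumor types (r = 0.97 in each), while those of mmu-miR-199b-5p scatter and 1 TIM library lies at 83.3 CPM.

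To name the miRNAs whose pattern was most like that of the family, each of the other 394 miRNAs that averaged 10 CPM or more was compared with the mean log2(CPM + 1) of the members over the 18 libraries, after group means were removed. The 6 with the highest Pearson's r were miR-140-5p (0.74), miR-152-5p (0.70), miR-152-3p (0.68), miR-22-3p (0.65), miR-142a-5p (0.62) and miR-221-3p (0.62), and the median over all 394 was 0.17. These values are a description with no test. miR-140-5p, best known from cartilage, had 198 ± 35.0 CPM in AG (SD, n = 3) and 130 ± 46.0 CPM in TI (SD, n = 7), a log2 fold change of -0.67 (limma adjusted p = 0.099) that did not pass. miR-22-3p had 9388 ± 984 CPM in AG (SD, n = 3), 1040 ± 516 CPM in TI (SD, n = 7) and 1244 ± 994 CPM in TIM (SD, n = 8). miR-142a-5p, a miRNA of blood cells, had 293 ± 76.5 CPM in AG (SD, n = 3), 111 ± 74.3 CPM in TI (SD, n = 7) and 88.8 ± 49.2 CPM in TIM (SD, n = 8).

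Markers of several other cell types were lower in tumors as well, beside 29.3% of all miRNAs tested in TI and 25.9% in TIM. Of 11 miRNAs listed for mesenchyme and smooth muscle, 6 were lower in TI tumors, 7 in TIM tumors and none higher. Their summed levels were 276507 to 317160 CPM in AG, 31490 to 239580 CPM in TI tumors and 67969 to 142659 CPM in TIM tumors. Most of these sums came from miR-143-3p and miR-21a-5p, with means of 167923 and 83004 CPM in AG. miR-21a-5p did not pass in TI or TIM (limma adjusted p = 0.21 and 0.23). In TI, miR-195a-5p and miR-497a-5p were above 0, at log2 fold changes of 0.29 and 0.12 (limma adjusted p = 0.69 and 0.88). In TIM these 2 were at -0.65 and -0.11 (limma adjusted p = 0.33 and 0.88). None of the 11 was at 0 throughout. miR-143-3p, typical of smooth muscle, had log2 fold changes of -1.61 in TI (limma adjusted p = 0.042) and -1.96 in TIM (limma adjusted p = 0.016), and miR-145a-5p, from the same transcript, -1.51 in TI (limma adjusted p = 0.080) and -2.15 in TIM (limma adjusted p = 0.017). Both endothelial markers were lower in each tumor type. miR-126a-3p, the defining one of vessels, fell further than any member, by 3.63 in TI and by 3.18 in TIM on the log2 scale (limma adjusted p = 3.3e-06 and 1.3e-05), and the summed level of the 2 was 38529 to 46092 CPM in AG, 1704 to 6736 CPM in TI and 2428 to 8943 CPM in TIM.

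Of 6 leukocyte markers, 3 were lower in TI (29.3% of all tested) and 4 in TIM (25.9% of all tested). Their sums were 654 to 1039 CPM in AG, 273 to 1372 CPM in TI and 145 to 518 CPM in TIM, and miR-146a-5p alone reached 1096 CPM in TI. Those lower in both were miR-142a-5p, miR-150-5p and miR-223-3p. The log2 fold change of miR-150-5p, the largest of the 6, was -4.05 in TI and -3.90 in TIM (limma adjusted p = 0.00015 and 0.00018). That of miR-142a-3p was -1.17 in TI (limma adjusted p = 0.077) and -1.43 in TIM (limma adjusted p = 0.034). Erythroid markers did not pass in either tumor type (0 of 5), with miR-451a at 0.01 in TI and -1.14 in TIM on the log2 scale and sums of 899 to 2995 CPM in AG, 461 to 5141 CPM in TI and 226 to 3162 CPM in TIM. Of 7 epithelial markers, 0 passed in TI and 1 was lower in TIM (25.9% of all tested), with miR-200b-3p at -0.10 and -1.83 (limma adjusted p = 0.96 and 0.26). Sums of the 7 were 1236 to 1762 CPM in AG, 354 to 1952 CPM in TI and 180 to 530 CPM in TIM. Of 6 neuronal and neuroendocrine markers, 3 were higher in TI (26.4% of all tested) and 4 in TIM (25.5% of all tested), and 0 were lower. These were miR-124-3p, miR-9-5p and miR-9-3p in both, and miR-128-3p in TIM. miR-124-3p, the classical miRNA of neurons, was at 2.17 to 7.08 CPM in AG, 34.1 to 493 CPM in TI tumors and 56.2 to 728 CPM in TIM tumors. miR-375-3p, known from endocrine cells including the adrenal medulla, had -1.75 in TI and -2.27 in TIM (limma adjusted p = 0.20 and 0.094). The sums of the 6 were 45921 to 108838 CPM in AG, 34237 to 251387 CPM in TI tumors and 45995 to 250567 CPM in TIM tumors. Most of these sums came from miR-7a-5p, with means of 60999 CPM in AG, 75923 CPM in TI and 88688 CPM in TIM. It did not pass in TI or TIM (limma adjusted p = 0.92 and 0.63). Between TIM and TI, none of these lists had a member past the threshold except 1 epithelial one, lower in TIM. The part of these cell types in the lower levels of the mmu-miR-199 and mmu-miR-214 family was not tested.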

How the data were processed

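Small RNA libraries of 3 adrenal glands and 15 tumors were analysed. The submitters' processing notes name cutadapt 2.8, Bowtie2 2.3.5.1, featureCounts 2.0.0 and edgeR 3.40 with mm10, and the treatment of reads with several matches is not given in the sources used here. The deposited signal of each mature miRNA is in CPM, for which the authors scaled every library by its read total and TMM factor. Comparison columns (log2 fold changes, p-values, FDR) in the same table were not used. Every value above 0 (100%) was a whole multiple of the value of 1 read within 0.001, which gave the recovered reads.

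The main test was limma 3.58.1 with trend (R 4.3.3). It was fitted to log2(CPM + 1) in one model of 18 libraries, after miRNAs that did not reach 1 CPM in 3 or more of them were dropped (726 of 1966 stayed). P-values were adjusted by Benjamini-Hochberg, with a threshold of 0.05. A fold change on this scale understates that of low miRNAs. Ratios and correlations were tested by exact permutation (scipy 1.17.1), doubling the smaller tail. edgeR 4.0.16 (quasi-likelihood) and DESeq2 1.42.0 on recovered reads, other pseudocounts, scalings and filters, and each library left out were alternatives. In simulated data of TI against AG over 726 miRNAs, limma found 114 (57%) of 200 changed by a log2 fold change of 2, with 2 false calls. The changed miRNAs were drawn from all 726, with as many raised as lowered, so this share is not that for the members' levels.

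The rule for the members uses their names only, but members and marker lists were chosen with earlier results of these data known. Named were the 5 members, miR-199b-3p, the 6 miRNAs most like the members' mean, and the defining markers of each list. Sequences are from RefSeq (GRCm38.p6). Libraries of a group were compared and 0 pairs were identical.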

Additional observations from a re-analysis of the deposited data

Results flagged for a closer look

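Of 18 sets of values examined for a library far from the rest (5 members and 4 ratios in TI and in TIM), 2 held one, where chance gives about 1 in 20. Both concern library 4 of TIM. Its miR-199b-5p, at 83.3 CPM, was above the next TIM library at 35.5 CPM, a gap of 0.639 of the range of the group in CPM. Members were examined in CPM only. On log2(CPM + 1), which was not examined, this library was at 6.40, the next at 5.19 and the lowest at 3.25, so the gap is a smaller part of the range. Its log2 ratio of miR-199b-5p to miR-199a-5p, at -0.31, was above the next at -2.98, a gap of 0.732 of the range. The second follows in part from the first, since both use miR-199b-5p. Without this library, miR-199b-5p was lower in TIM than in AG by limma, as given above.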

How the results depend on the processing

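No paired analysis was possible because column names of the table give a group without numbers of its mice. Against AG no member changed direction under any alternative. In TI, 5 members passed in limma. Only 3 passed with CPM on totals without miR-148a-3p, where no TMM factor was applied, and only 3 without a filter. The number was also 3 when the third group was dropped from the model and with edgeR, and miR-214-3p and miR-199b-5p were lost each time. DESeq2 lost miR-199b-5p. With 1 library left out the number was 2 to 5 in TI tumors and 2 to 4 in TIM tumors. In TIM, 3 members passed in limma and 5 when TI was dropped from the model. miR-214-3p also passed in TIM with median ratio scaling, with a minimum of 10 CPM, with edgeR and with DESeq2. Removing miR-148a-3p from the totals and the TMM factor together moved the median of all miRNAs tested by 0.32 in TI and 0.35 in TIM, to 0.31 and 0.53. The members' medians were then -1.36 and -1.40. With the TMM factor alone removed, the medians of all miRNAs tested were -0.14 in TI and 0.41 in TIM, and those of the members -2.10 and -1.65.

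Between TIM and TI no member passed under any alternative, and signs changed. Without the TMM factor, which moved the median of all miRNAs tested by 0.42, miR-199a-3p turned to 0.45 and miR-214-5p to 0.49. In the same setting miR-199a-5p moved to 0.63, miR-199b-5p to 0.71 and miR-214-3p to 0.71. With neither the TMM factor nor miR-148a-3p in the totals, miR-214-5p was at 0.045. On recovered reads miR-199a-5p turned to -0.23 with edgeR and -0.24 with DESeq2, and miR-214-3p to -0.060 and -0.078. With 1 library left out, TIM minus TI on the log2 scale ran from -0.23 to 0.38 for miR-199a-5p, from -0.27 to 0.10 for miR-199a-3p, from -0.18 to 0.41 for miR-199b-5p, from -0.11 to 0.42 for miR-214-3p and from -0.19 to 0.20 for miR-214-5p. The number of all miRNAs that passed between TIM and TI ran from 24 to 68 with 1 library left out, and from 3 with edgeR to 155 without the TMM factor.

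No ratio passed under any alternative, which against AG says little, given the smallest p that 3 or fewer AG libraries allow. With 1 library left out, the log2 difference of miR-199a-3p over miR-199a-5p ran from -0.075 to 0.55 in TI against AG, from -0.26 to 0.37 in TIM against AG and from -0.34 to 0.037 in TIM against TI. In TIM against TI, that of miR-199b-5p over miR-199a-5p ran from -0.27 to 0.39 and that of miR-199a-5p over miR-214-3p from -0.31 to 0.024. The rows of miR-199a-3p and miR-199b-3p were added together after the data had been seen, which changed no call of a member. The cause of these changes was not tested.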
